A study of Mus musculus with 8 samples.

Results

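The miR-297, miR-466, miR-467 and miR-669 families are groups of short regulatory RNAs found in mice and other rodents, most of which come from one long array of hairpins inside the gene Sfmbt2. They were examined in liver of Snd1 knockout (KO) and wild-type (WT) mice by small-RNA sequencing. All known mature miRNAs whose name begins with one of these 4 family numbers were taken as members, followed by a letter, a copy number or an arm. The rule gave 62 of the 1341 known miRNAs listed in any library, namely 5 of miR-297, 29 of miR-466, 9 of miR-467 and 19 of miR-669. In 32 the name ends in 5p and in 23 in 3p, the arm of the hairpin that the mature strand comes from, and 7 names give no arm.

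The data are 8 libraries, 1 per mouse, from 4 Snd1 KO and 4 WT males. KO mice were homozygous for a germline deletion of exon 1 of Snd1, made in embryonic stem cells of 129/Sv origin with a floxed exon 1 that was removed by CAG-Cre, a Cre driven in all tissues, and WT mice carried the intact gene. Both came from heterozygous parents after backcrossing, and all carried the C57BL/6N background. The mice were 8 to 12 weeks old, and RNA came from the left lobe of the liver. The deleted allele was in every tissue, so that the genotype was not limited to hepatocytes, and the Snd1 transcript itself is not measured in libraries of 18 to 30 base RNA. In bulk liver, fewer cells of a type and less RNA per cell cannot be told apart.

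A miRNA is cut from a hairpin by Drosha and then Dicer, and one of its arms is loaded into an Argonaute protein, where bases 2 to 8, the seed, pair with target mRNAs. Sfmbt2 encodes a Polycomb-group protein, and in mouse and rat its expression from the paternal allele is known from extraembryonic tissue such as the placenta. Which allele is expressed in liver was not measured here. The miRNA array in the Sfmbt2 intron is known from mouse for its role in the placenta. Snd1, also called Tudor-SN, binds RNA and carries nuclease domains, and its human homolog is known to cut miRNAs at CA and UA dinucleotides. Members rich in these dinucleotides, such as miR-466i-3p, are therefore of interest in a Snd1 KO. How rich in them most members are cannot be read here, since few had a sequence.

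The array was located on GRCm38 with the GENCODE M21 annotation. Sfmbt2 lies on the plus strand at chr2:10370510-10595253. Of 81 annotated hairpins of the 4 families, 71 lay inside it, all on its own strand. All 71 were in a single intron, between exons 10 and 11 of the coding transcript Sfmbt2-201, at chr2:10461473-10523944, an intron of 62472 bases. The hairpins spread over 51.6 kb, from 96.2 to 147.6 kb after the start of the gene. The other 10 hairpins were on 7 other chromosomes. By name, 48 members had hairpins in Sfmbt2 alone, 7 had hairpins elsewhere alone and 5 had both, and both arms of miR-466a were left unmatched. Many names stand for several copies. miR-467a, for example, has 10 hairpins, all in the Sfmbt2 intron, and its listed level cannot be split among them.

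**Figure D1:**
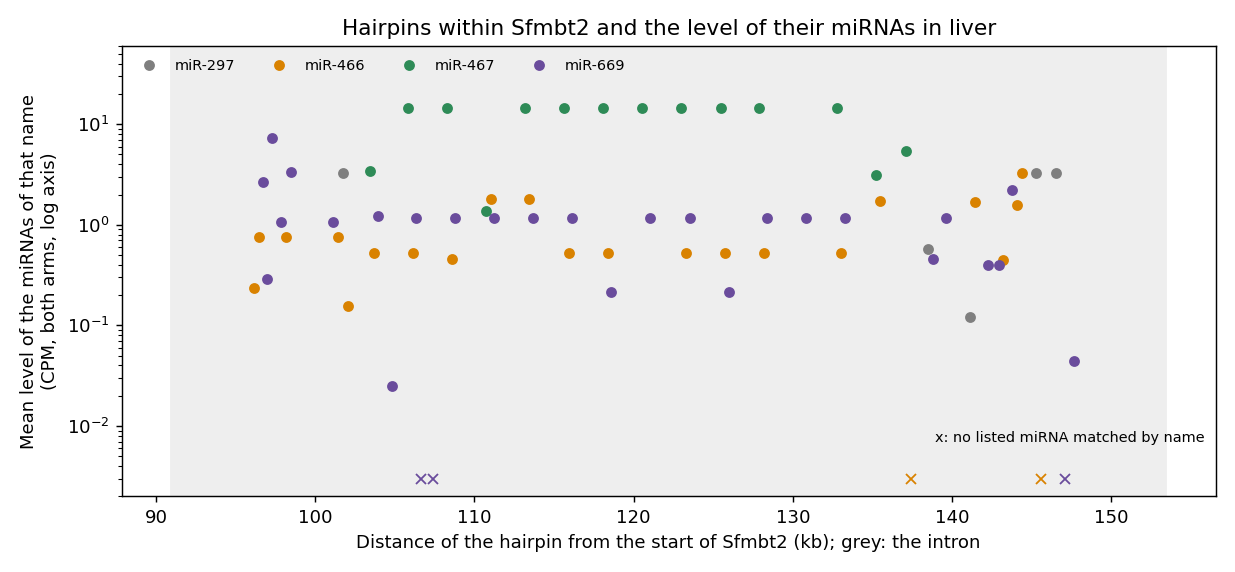
Position of the 71 hairpins inside Sfmbt2, in kb from the start of the gene (x axis), against the mean level over the 8 libraries of the mature miRNAs of that name, both arms added, in CPM on a log axis (y axis). Points are coloured by family, copies of a name share 1 level, crosses mark hairpins with no listed miRNA of their name, and the grey band is the intron that holds all 71, in which the copies of miR-467a form the highest line.

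Mature sequences from RefSeq (GRCm38.p6) were matched to 6 of the 62 members. They are shown because they let the repeats of these 6 members be read directly. The seed is in capitals.
miR-466i-3p: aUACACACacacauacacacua
miR-466q: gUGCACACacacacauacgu
miR-466j: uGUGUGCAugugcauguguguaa
miR-466k: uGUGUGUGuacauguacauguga
miR-467h: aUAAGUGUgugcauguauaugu
miR-669n: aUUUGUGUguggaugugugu
They are encoded at chr13:17747552-17747573, chr3:28419988-28420007, chr10:60960802-60960824, chr3:85467396-85467418, chr9:115381898-115381919 and chr3:115979905-115979924 in that order, all on the plus strand and all outside Sfmbt2. The 6 seeds all differ, and none is shared with another known miRNA that has a sequence. The first pair are built of CA repeats and the other 4 of UG repeats. miR-466i-3p holds 5 CA dinucleotides in a row and miR-466q holds 6, while miR-466k and miR-669n hold runs of 4 UG and miR-466j and miR-467h runs of 3. Each of the 6 has a run of at least 3 UG or 3 CA, a feature of 25 (2.20%) of the 1137 known miRNAs with a sequence. CA or UA made up 10 of the 21 dinucleotides of miR-466i-3p and none of the 19 of miR-669n, against a median of 2 per known miRNA. Only 0.0880% of known miRNAs with a sequence had as many CA and UA as miR-466i-3p, which is that miRNA alone.

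These 6 were rare in liver. miR-466k, the highest of them, had 0.69, 1.02, 1.31 and 0.62 CPM (tags per 1000000 tags of the library) in the Snd1 KO libraries, replicates 1 to 4, against 0.77, 0.92, 0.68 and 1.5 CPM in the WT libraries, replicates 1 to 4. miR-466i-3p had 0.32, 0, 0.04 and 0.12 CPM in KO and 0.04, 0, 1.05 and 0.05 CPM in WT, and miR-467h had 0.46, 0, 1.39 and 0 CPM in KO and 0, 0, 0.80 and 0.69 CPM in WT. The genotypes overlapped in all of them. miR-466j, miR-466q and miR-669n did not exceed 0.31 CPM in any library. A count of 0 allows a level of up to 0.109 to 0.185 CPM at these depths, so a listed 0 and a few hundredths of a CPM are not distinguishable. Over the 402 tested known miRNAs with a sequence, the median log2 fold change of KO over WT was -0.03 for the 201 with 0 to 2 CA and UA dinucleotides, -0.15 for the 158 with 3 to 4 and -0.24 for the 43 with 5 or more. No tested member was among them.

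Library totals ran from 16223610 to 27526162 tags, and all values were whole tags within 0.0051 CPM. Known miRNAs took 57.9, 75.9, 77.6 and 65.9% of the tags in KO and 78.2, 78.7, 62.6 and 67.6% in WT. The libraries therefore fell into 4 with a lower share (KO replicates 1 and 4, WT replicates 3 and 4) and 4 with a higher share (KO replicates 2 and 3, WT replicates 1 and 2), with both genotypes in each set. Within both sets the KO libraries had the lower mean share, 61.9 against 65.1% in the lower-share set and 76.7 against 78.4% in the higher-share set. The markers of hepatocytes were present throughout, all 5 at 1 CPM or more in every library, with a summed level of 244334 to 296915 CPM in the lower-share and 326831 to 382555 CPM in the higher-share libraries. Summed markers of erythroid cells (7363 to 9826 CPM in the lower-share libraries, 13338 to 17397 CPM in the higher-share libraries) and of endothelium (5812 to 6653 CPM and 12518 to 19516 CPM) were likewise lower in the lower-share set. Leukocyte, mesenchymal and biliary markers overlapped between the sets, and no marker list separated KO from WT. All markers are themselves known miRNAs, so their tags count in the share by which the libraries were split. In KO replicate 1 the file lists no tags of the genomic classes other than small RNAs, and its total was recovered from the steps of its values.

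The 62 members together were a small part of liver miRNA, at 0.0074 to 0.0171% of known miRNA tags, from 1420 to 2819 tags a library. Between 40 and 51 were listed in a library, 29 were listed in all 8, and 12 in 3 or fewer. Only 2 members, miR-466i-5p and miR-467a-5p, averaged 10 CPM or more, which placed them 195th and 234th among the 1341 known miRNAs. Another 15 averaged 1 to 10 CPM, 27 averaged 0.1 to 1 CPM and 18 less. The minimum for the test, 1 CPM or more in 4 or more libraries, was reached by 16 members (25.8%), against 459 of the 1279 other known miRNAs (35.9%), and these 475 were tested. None of the 16 passed through one genotype alone, and 9 had 1 CPM or more in all 8 libraries. By tags, the more abundant strand was mostly the 5p arm. Of the 22 names with both arms listed, the 5p arm held more tags in 15, with 99.4% of the tags of miR-466i, 99.2% of miR-467a and 99.9% of miR-669b. The 3p arm held more in 7, which were miR-466a, b, d, f, h and p and miR-669a, with 3.82% of tags on the 5p arm of miR-466d, 8.10% for miR-466h and 11.7% for miR-669a. The arms were close in miR-466a (8 tags on 5p and 10 on 3p), miR-466b (41 and 53) and miR-466p (151 and 155). They were also close in miR-466e, where 5p held more (44 and 36).

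No member passed the test between Snd1 KO and WT liver. With limma on log2(CPM + 1) and Benjamini-Hochberg adjustment over all 475 tested miRNAs, 0 of the 16 members had an adjusted p below 0.05, as had 0% of all tested. At an unadjusted p below 0.05 there were 0 members, against 20 known miRNAs (4.21%) by limma and 19 by limma-voom on recovered tags. In 0 members did the 4 KO values all lie above or all below the 4 WT values, against 2.95% of all tested, and the 46 members below the minimum overlapped as well. The log2 fold change was above 0 in 12 members and below 0 in 4, while 41.3% of all tested were above 0. The median was 0.14 over the 16 members and -0.11 over all 475. With no minimum it was -0.016 over all 62 members and -0.014 over all 1341 known miRNAs, and the 46 members below the minimum summed to 7.55, 9.20, 13.9 and 9.07 CPM in KO and 6.82, 8.17, 22.5 and 18.4 CPM in WT, a log2 difference of -0.35. Standard errors of single members ran from 0.21 to 0.70 and adjusted p from 0.842 to 0.979 (limma). Even the lowest adjusted p, that of miR-669f-5p, went with a log2 fold change of -0.53 and an SE of 0.26. Differences larger than these errors could therefore go undetected with 4 mice a genotype.

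**Figure D2:**
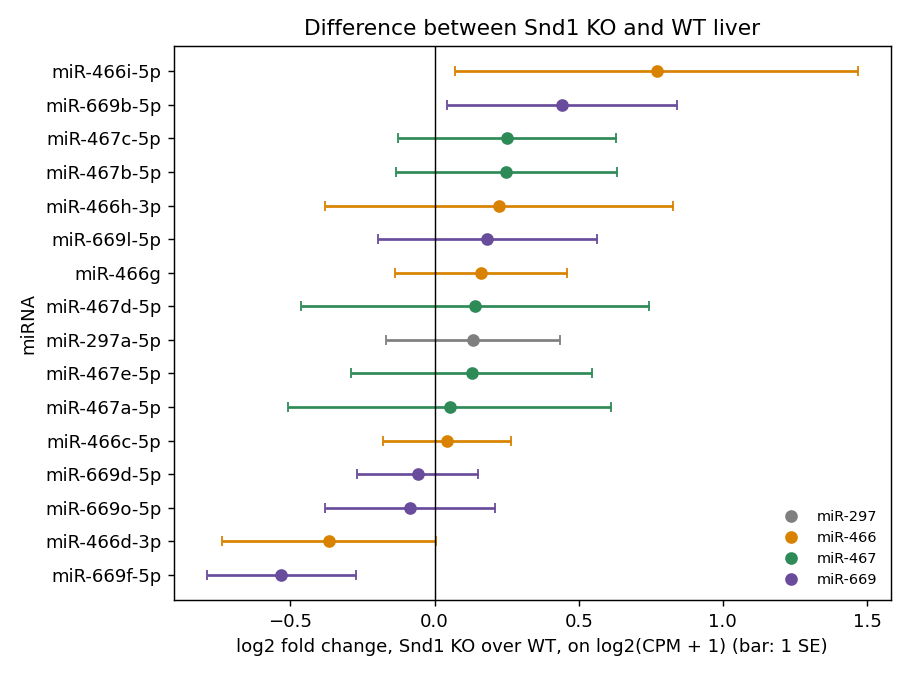
Log2 fold change of Snd1 KO over WT for the 16 tested members (y axis, ordered by value), with points coloured by family and bars of 1 SE from the limma fit on log2(CPM + 1) over 4 KO and 4 WT libraries. The values run from -0.53 for miR-669f-5p to 0.77 for miR-466i-5p, and none has an adjusted p below 0.842.

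Summed over all 62 members, the level was 95.3, 102.4, 105.9 and 105.7 CPM in KO libraries, against 57.9, 71.0, 107.0 and 97.7 CPM in WT libraries. The 4 KO libraries were close to one another, WT replicates 1 and 2 lay below them all, WT replicate 4 lay among them and WT replicate 3 above them. The means were 102.3 ± 4.95 CPM in KO and 83.4 ± 22.8 CPM in WT (SD, n = 4 each), a log2 difference of 0.34 that is a description with no test. Within the higher-share set the difference was 0.70 and within the lower-share set -0.03. Without miR-466i-5p, a sum chosen after its values were seen, KO had 38.8, 87.7, 94.2 and 49.3 CPM and WT 50.9, 62.7, 63.8 and 75.1 CPM, a log2 difference of 0.01, with 0.69 in the higher-share and -0.66 in the lower-share libraries. The 5p arms summed to 82.2, 96.1, 93.0 and 92.8 CPM in KO and 53.1, 63.6, 75.2 and 79.1 CPM in WT without overlap, and without miR-466i-5p they overlapped. The 3p arms summed to 9.81, 3.73, 8.89 and 10.2 CPM in KO and 2.64, 5.80, 28.3 and 13.1 CPM in WT, a log2 difference of -0.20. They overlapped over all 8 libraries. In the lower-share set both KO values were below both WT values (-0.95), while in the higher-share set KO and WT overlapped and the difference was positive (0.56).

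By family, the sums of KO and WT overlapped in all 4. The miR-466 sum was 69.5, 25.1, 24.7 and 70.2 CPM in KO and 13.5, 16.6, 70.2 and 41.7 CPM in WT, a log2 difference of 0.55 that became -0.05 without miR-466i-5p. The miR-467 sum was lower, not higher, in the lower-share libraries, with 10.9, 51.3, 52.2 and 12.8 CPM in KO and 26.1, 36.4, 15.4 and 20.7 CPM in WT (log2 difference 0.07). The miR-669 sum was 12.4, 21.5, 25.6 and 18.1 CPM in KO and 14.8, 14.8, 18.3 and 28.4 CPM in WT (0.03), with its highest value in WT replicate 4. miR-297 was the smallest family, with 2.54, 4.58, 3.41 and 4.63 CPM in KO and 3.42, 3.21, 3.08 and 6.79 CPM in WT (-0.08). The make-up of the sum differed between the library sets. miR-466 members held 42.7 to 72.9% of the summed level in the lower-share and 23.3 to 24.5% in the higher-share libraries, and miR-467 members held 11.4 to 21.2% and 45.2 to 51.3%.

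**Figure D3:**
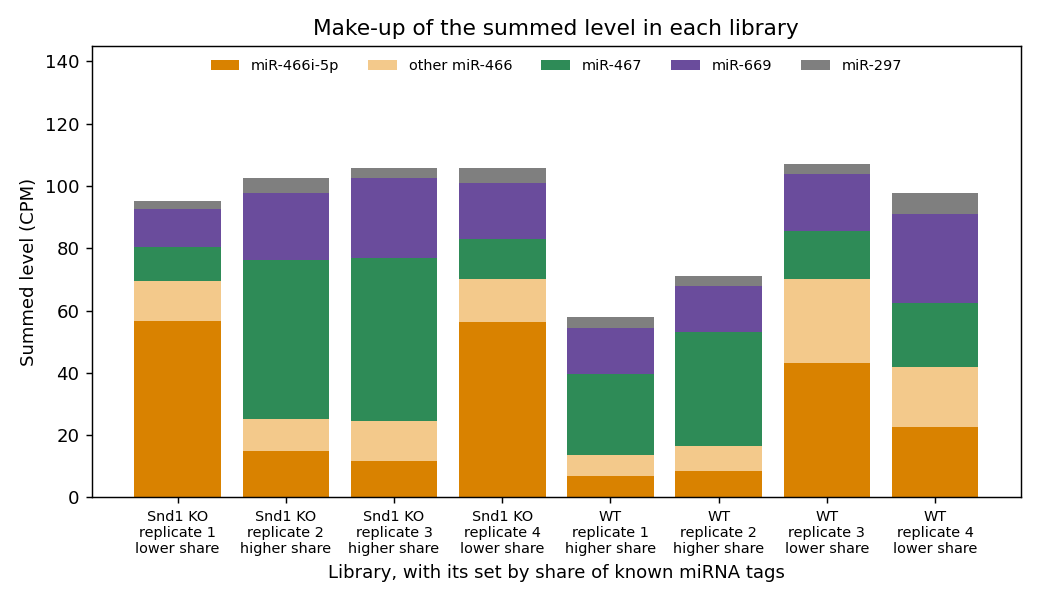
Summed level of the 62 members in each library, in CPM from 0 (y axis), stacked by miR-466i-5p, the other miR-466 members, miR-467, miR-669 and miR-297, with KO libraries left of WT libraries. miR-466i-5p fills 23.1 to 59.3% of the bar in the 4 lower-share libraries and 10.99 to 14.4% in the 4 higher-share libraries, and miR-467 moves the other way.

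miR-466i-5p had the highest mean of the members and is the one tested member with no hairpin in Sfmbt2. By name its hairpin is Mir466i, at chr13:17747473-17747593 on the plus strand, inside Cdk13, a kinase gene on the opposite strand. No mature sequence was matched to it, and how tags from repeated loci were assigned is not stated in the sources used here. Whether all its tags come from this hairpin is therefore not known. miR-466i-5p had 56.5, 14.7, 11.6 and 56.4 CPM in KO libraries, against 6.97, 8.30, 43.2 and 22.6 CPM in WT libraries. KO replicates 1 and 4 and WT replicates 3 and 4 were high and the genotypes overlapped, although within each set both KO values were above both WT values. The means were 34.8 ± 25.01 CPM in KO and 20.3 ± 16.9 CPM in WT (SD, n = 4 each), with a log2 fold change of 0.77 (SE 0.70, limma adjusted p = 0.891, and p = 0.371 in a two-sided exact permutation test whose smallest p is 0.0286). The difference was 0.71 within the higher-share and 0.83 within the lower-share set. With the set as a covariate it was 0.77 (SE 0.26, unadjusted p = 0.0165, limma adjusted p = 0.263), and 65 of the 475 tested miRNAs (13.7%) had an unadjusted p below 0.05 in that fit. With the share itself as a covariate, added after seeing the data, it was 0.45 (SE 0.28, limma adjusted p = 0.492). The opposite arm, miR-466i-3p, stayed at or below 1.05 CPM.

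For miR-466i-5p the contrast between the library sets was larger than that between genotypes. It averaged 44.7 ± 15.98 CPM in the lower-share and 10.4 ± 3.48 CPM in the higher-share libraries (SD, n = 4 each), a log2 difference of 1.97 without overlap, and only 6 of the 475 tested miRNAs had a larger one. Of the 16 tested members, 7 did not overlap between the sets (30.7% of all tested). Of these, 3 were higher in all lower-share than in all higher-share libraries (21.1% of all tested), which were miR-466i-5p, miR-466h-3p and miR-466g. A further 4 were lower in all of them (9.68% of all tested), namely miR-467a-5p, miR-467b-5p, miR-467c-5p and miR-467d-5p. Of these, miR-467b-5p reached the minimum for the test in the higher-share libraries alone. Its lower level in the lower-share set was therefore fixed by the filter and is no result. The summed CPM of the hepatocyte, endothelial and erythroid markers was also lower in the lower-share libraries, as given above. These markers count in the share itself, so they are not independent of the split. Their part in these differences was not tested.

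**Figure D4:**
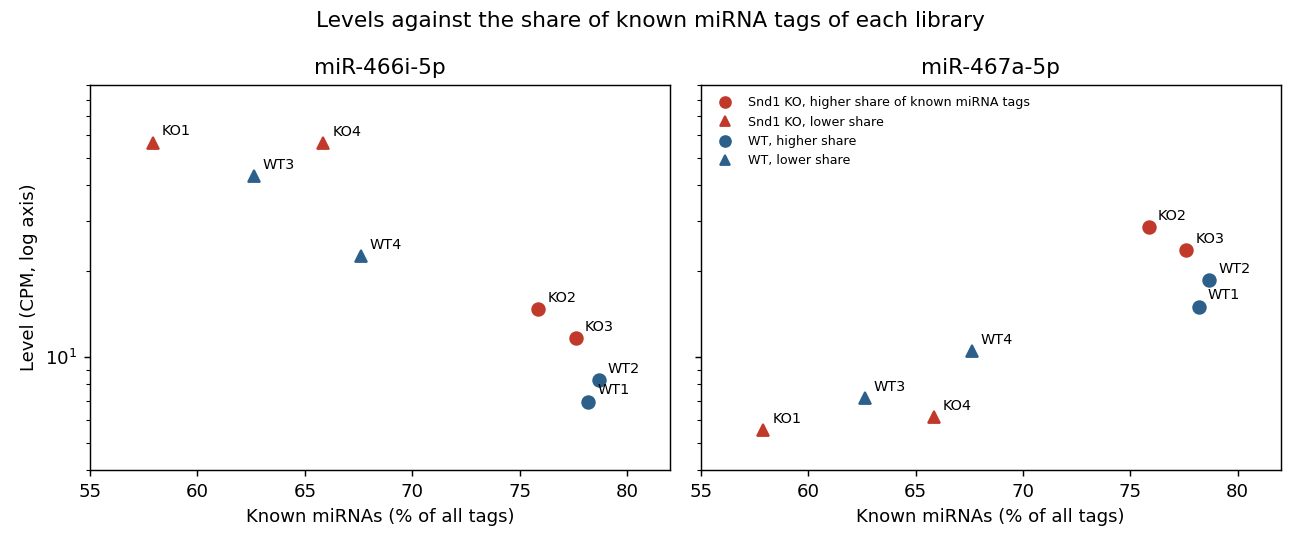
Level of miR-466i-5p (left) and miR-467a-5p (right) in each library, in CPM on a log axis, against the share of the library's tags that are known miRNAs, in percent. Red points are Snd1 KO and blue points WT, numbered by replicate, with triangles for the lower-share and circles for the higher-share libraries, and the levels of miR-466i-5p are higher, and those of miR-467a-5p lower, in all 4 triangles than in any circle.

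miR-467a-5p, the second most abundant member, comes from the Sfmbt2 array, where its 10 hairpins are spread through the intron. Its levels were 5.53, 28.5, 23.6 and 6.13 CPM in KO and 15.0, 18.5, 7.15 and 10.5 CPM in WT. The KO libraries held both the highest and the lowest values and so enclosed the WT range. The log2 fold change was 0.05 (SE 0.56, limma adjusted p = 0.979), with 0.61 in the higher-share set, where both KO libraries were above WT, and -0.50 in the lower-share set, where both were below. Between sets it averaged 7.32 ± 2.20 CPM in the lower-share and 21.4 ± 5.89 CPM in the higher-share libraries (SD, n = 4 each), a log2 difference of -1.43. The ratio of miR-466i-5p to miR-467a-5p was therefore 10.2, 0.517, 0.493 and 9.20 in KO and 0.464, 0.448, 6.04 and 2.16 in WT. It was above 1 in the lower-share libraries of both genotypes and below 1 in all others.

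Of the other tested miR-467 members, b, c and d had the same split as miR-467a-5p, and miR-467e-5p overlapped between the library sets. miR-467d-5p, from a hairpin of the same intron, had 1.24, 11.3, 10.1 and 2.11 CPM in KO and 4.24, 8.22, 1.97 and 3.47 CPM in WT, with a log2 fold change of 0.14 (SE 0.60, limma adjusted p = 0.971). Its KO values again enclosed the WT range. miR-467c-5p had 1.70, 4.50, 6.88 and 2.49 CPM in KO and 3.14, 4.32, 2.28 and 1.82 CPM in WT (log2 fold change 0.25), and miR-467e-5p had 1.24, 4.58, 6.81 and 1.49 CPM in KO and 1.92, 3.56, 2.28 and 2.89 CPM in WT (0.13). In both the KO libraries of the higher-share set were the highest of all 8. miR-467b-5p, known in mouse to repress lipoprotein lipase, reached 1 CPM in just 4 libraries, those of the higher-share set, so that its split followed from the minimum. It had 0.55, 2.29, 3.29 and 0.54 CPM in KO and 1.75, 1.45, 0.43 and 0.75 CPM in WT (0.25, SE 0.38, limma adjusted p = 0.971). The 3p arms of miR-467a, miR-467c and miR-467d stayed below 0.5 CPM in every library.

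**Figure D5:**
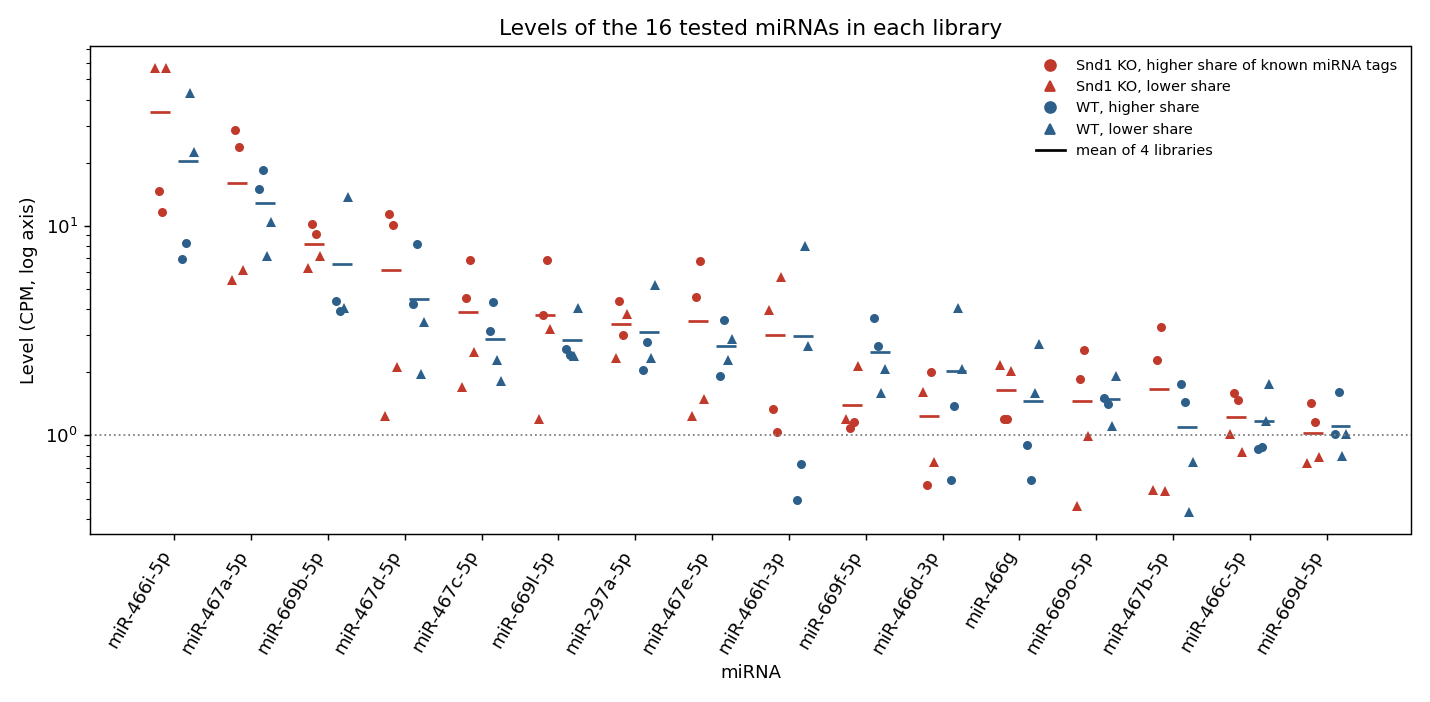
Level of the 16 tested members in each library, in CPM on a log axis (y axis), with Snd1 KO in red left of WT in blue for each miRNA, circles for the higher-share and triangles for the lower-share libraries, and short lines at the mean of 4 libraries. Red and blue points overlap in all 16, and the dotted line marks the minimum of 1 CPM.

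In the miR-669 family, miR-669b-5p was the most abundant, with 6.31, 10.2, 9.16 and 7.17 CPM in KO and 4.4, 3.94, 4.07 and 13.7 CPM in WT. All 4 KO values were above 3 of the WT values, and WT replicate 4 was above all of them. The means were 8.20 ± 1.77 CPM in KO and 6.54 ± 4.80 CPM in WT (SD, n = 4 each), with a log2 fold change of 0.44 (SE 0.40, limma adjusted p = 0.891, p = 0.286 in the two-sided exact permutation test), and without WT replicate 4 the genotypes no longer overlapped. miR-669l-5p, another 5p strand of the array, had 1.20, 3.74, 6.88 and 3.23 CPM in KO and 2.57, 2.41, 2.40 and 4.06 CPM in WT (0.18). WT replicate 4 was again the highest WT value.

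miR-669f-5p had the most negative fold change of the 16. Its levels were 1.20, 1.09, 1.16 and 2.15 CPM in KO and 3.63, 2.68, 1.60 and 2.08 CPM in WT, with means of 1.40 ± 0.502 CPM in KO and 2.50 ± 0.875 CPM in WT (SD, n = 4 each). KO replicate 4 alone reached into the WT range. The log2 fold change was -0.53 (SE 0.26, unadjusted p = 0.0684 and adjusted p = 0.842 by limma, p = 0.0857 in the two-sided exact permutation test), with -0.96 within the higher-share and -0.10 within the lower-share set. miR-669o-5p, with 0.46, 1.85, 2.55 and 0.99 CPM in KO and 1.51, 1.41, 1.11 and 1.92 CPM in WT, and miR-669d-5p, with 0.74, 1.42, 1.16 and 0.79 CPM in KO and 1.02, 1.61, 0.80 and 1.02 CPM in WT, had log2 fold changes of -0.09 and -0.06. Both were near the minimum. miR-669a-3p, of a miRNA known in mouse to restrain skeletal muscle differentiation, was just below it, with 1.20, 0.29, 1.89 and 0.75 CPM in KO and 0.20, 0.96, 0.06 and 3.05 CPM in WT. The opposite arm miR-669o-3p was at or below 0.46 CPM in 7 libraries and at 4.19 CPM in WT replicate 3, and miR-669f-3p ran from 0.15 to 1.04 CPM in KO and from 0.08 to 1.79 CPM in WT.

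Apart from miR-466i-5p, the tested miR-466 members had hairpins in Sfmbt2 alone. miR-466h-3p had 3.96, 1.34, 1.04 and 5.72 CPM in KO and 0.49, 0.73, 8.01 and 2.67 CPM in WT (log2 fold change 0.23, SE 0.60, limma adjusted p = 0.971). Like miR-466i-5p it was higher in every lower-share library, with a log2 difference of 1.62 between the sets. Its opposite arm miR-466h-5p, known from hamster cells for promoting apoptosis, was at or below 0.75 CPM. miR-466g had 2.17, 1.20, 1.20 and 2.03 CPM in KO and 0.90, 0.61, 1.60 and 2.73 CPM in WT (0.16), again higher in the lower-share libraries of each genotype. miR-466d-3p, the one tested miR-466 member with a negative value, had 1.61, 0.58, 2.01 and 0.75 CPM in KO and 0.61, 1.38, 4.07 and 2.08 CPM in WT (-0.37, SE 0.37, limma adjusted p = 0.953). WT replicate 3 held its highest level. miR-466c-5p ran from 0.83 to 1.60 CPM in KO and from 0.86 to 1.76 CPM in WT (0.04), and miR-466c-3p was at or below 0.79 CPM except for 3.08 CPM in WT replicate 3. Just below the minimum, miR-466p-5p had 0.17 to 1.28 CPM in KO and 0.31 to 1.23 CPM in WT, and miR-466p-3p had 0.41 to 1.11 CPM in KO and 0.45 to 2.10 CPM in WT.

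miR-297a-5p, from 3 hairpins in Sfmbt2 and 1 on chromosome 7, was the one tested miR-297 member. It had 2.35, 4.36, 3.02 and 3.81 CPM in KO and 2.04, 2.79, 2.34 and 5.24 CPM in WT. The highest value was that of WT replicate 4, and the log2 fold change was 0.13 (SE 0.30, limma adjusted p = 0.971). Its opposite arm reached at most 0.06 CPM.

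Split by position, the 48 members with hairpins in Sfmbt2 alone summed to 34.6, 81.8, 87.6 and 44.1 CPM in KO and 47.4, 58.7, 56.2 and 66.5 CPM in WT. The means were 61.998 ± 26.6 CPM in KO and 57.2 ± 7.86 CPM in WT (SD, n = 4 each), a log2 difference of 0.02, with 0.68 in the higher-share and -0.65 in the lower-share set, where KO and WT were apart in opposite directions. The 7 members with hairpins elsewhere alone, of which miR-466i-5p made up most, summed to 58.0, 15.7, 14.4 and 57.2 CPM in KO and 7.86, 9.22, 46.1 and 24.95 CPM in WT (log2 difference 0.79). Here KO was above WT in both sets, by 0.82 and 0.76.

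Within the library sets, the sign of KO minus WT turned for most members. It was positive in 14 of the 16 in the higher-share set (median 0.47), where 54.3% of all tested were positive (median 0.03), and in 3 of 16 in the lower-share set (median -0.17), where 31.4% of all tested were positive (median -0.23). The sign was opposite in the 2 sets in 11 of the 16, against 43.6% of all tested. KO and WT were apart in opposite directions in 4 members (5.68% of all tested), and apart in the same direction in both sets in miR-466i-5p alone (13.7% of all tested). Each set held 2 libraries of a genotype, and the difference between the sets was not tested.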

How the data were processed

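Small RNA of 18 to 30 bases was sequenced by the authors on the BGISEQ-500 platform, mapped with Bowtie to GRCm38 (version not given in the sources used here) and compared with DEGseq. The deposited values are CPM, tags per 1000000 tags of the library headed TPM, rounded to 2 decimals and not divided by length. The sources used here do not say how tags from repeated loci were assigned, and near-identical copies in these families make the level of a single member uncertain. Replicates are separate mice. The study's own test pools tags, so limma 3.58.1 (R 4.3.3) with a mean-variance trend on log2(CPM + 1) was used, so that a fold change understates that of low miRNAs. An absent miRNA was set to 0, no member had repeated lines, the minimum was 1 CPM in at least 4 of 8 libraries, and p was adjusted by Benjamini-Hochberg over 475 miRNAs with a threshold of 0.05. Single values were compared by exact permutation over 70 assignments. Totals were recovered from the steps of the values, 1 tag being 0.0363 to 0.0616 CPM, and the fit was tested on simulated data. Tags carry no molecular identifiers, so floors of 3 tags cover counting error only. Same-numbered KO and WT libraries correlated by -0.46, 0.35, -0.53 and 0.07 and were not treated as pairs. The members, gene lists and the split of libraries were chosen with earlier results of these data known. Named were all tested members, their opposite arms and the members just below the minimum. Alternatives were other scalings, filters, pseudocounts, limma-voom, the replicate block, library covariates and each library left out.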

Additional observations from a re-analysis of the deposited data

Results flagged for a closer look

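In groups of 4 libraries, 4 of the 42 groups examined held a library far from the others. Independent groups of normally distributed values would give about 2.1. The groups were not independent, since the sums are made of the same members, so no excess over chance is read from this count. miR-669b-5p was at 13.7 CPM in WT replicate 4, against 3.94 to 4.4 CPM in the other WT libraries. miR-669l-5p was at 4.06 CPM in the same library, against 2.40 to 2.57 CPM in the others. The sum of the miR-297 members was likewise highest in WT replicate 4, at 6.79 CPM against 3.08 to 3.42 CPM. miR-669f-5p was at 2.15 CPM in Snd1 KO replicate 4, against 1.09 to 1.20 CPM in the other KO libraries.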

How the results depend on the processing

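Under all 20 alternatives 0 members were called by limma, with 0 to 0 when single libraries were left out, and the unadjusted count was 0 or 1. It was 1 with no minimum (66 of all 1341 known miRNAs) and with the library split as a covariate (65 of 475). It was also 1 without KO replicate 4 (14 of 454), WT replicate 3 (29 of 451) or WT replicate 4 (18 of 452). Over all known miRNAs, 1 was called with the library split as a covariate, 1 with the share of known miRNA tags as a covariate (added after seeing the data) and 0 to 1 without single libraries, the 1 without WT replicate 2, against 0 otherwise. Numbers did not pair the libraries, and with the replicate block 0 members were called. Members without overlap between KO and WT numbered 0 to 1 without single libraries, namely miR-669f-5p without KO replicate 4 and miR-669b-5p without WT replicate 4. In each case the library left out was the one that overlapped, so the gap followed from that choice. The share of all tested miRNAs without overlap is not given for these settings, so no difference between genotypes is read from them. The median log2 fold change of tested members, 0.14, was 0.41 at a minimum of 10 CPM, which left 2 members, -0.016 with no minimum (62 members), and -0.09 to 0.33 without single libraries, while the median of all tested stayed between -0.15 and -0.01 under all settings. The log2 difference of the summed level, 0.34, was 0.012 without miR-466i-5p (chosen after seeing the data) and 0.18 to 0.47 without single libraries. By family it was -0.19 to 0.19 for miR-297, 0.19 to 0.98 for miR-466, -0.29 to 0.47 for miR-467 and -0.12 to 0.24 for miR-669.

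Without single libraries the sign turned in 10 members, none called: miR-466c-5p (-0.036 to 0.17), miR-466g (-0.017 to 0.39), miR-466h-3p (-0.12 to 0.75), miR-467a-5p (-0.32 to 0.40), miR-467c-5p (-0.019 to 0.50), miR-467d-5p (-0.24 to 0.58), miR-467e-5p (-0.20 to 0.40), miR-669d-5p (-0.15 to 0.047), miR-669l-5p (-0.11 to 0.51) and miR-669o-5p (-0.29 to 0.14). The share as a covariate also turned miR-466h-3p (-0.036) and miR-669o-5p (0.0056). The other 6 kept their sign under all settings in which they were tested, with miR-466i-5p between 0.42 and 1.24. The cause was not tested. A quasi-likelihood count test was not run, because the CPM columns did not meet the requirement set for treating them as counts, and limma-voom on recovered tags was run in its place. Summing members of identical sequence was not run, because no 2 of the 6 sequences are identical. At these depths most members had few tags a library, and how much of their spread is counting error was not tested.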

Other observations

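The miR-290 to miR-295 cluster, known from mouse embryonic stem cells and trophoblast, where the Sfmbt2 array is also active, was near the floor in liver. Of the 9 strands looked for, 8 were listed and none reached 1 CPM in all libraries. Their summed level was 0.48 to 2.08 CPM in Snd1 KO and 1.51 to 3.13 CPM in WT libraries, and the genotypes overlapped. miR-292a-3p was the most abundant, with 0.60, 0.11, 0.93 and 0.75 CPM in KO and 0.45, 1.41, 0.86 and 0.64 CPM in WT. The members described above summed to 57.9 to 107.0 CPM in the same libraries, and the 48 with hairpins in Sfmbt2 alone to 34.6 to 87.6 CPM.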
